A study of Mus musculus with 94 samples.

Results

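A set of 60 probes was selected on a higher level in macrophage segments of vehicle-treated mice 14 days after renal ischemia-reperfusion injury (IRI) than in control kidneys, together with a small difference in tubular segments. They are 60 of the 20175 probes that digital spatial profiling counted in mouse kidney. The level of a probe was its counts per 1000000 counts (CPM), computed from counts summed over all regions of a section and stain, and differences were taken on the log2(CPM + 1) scale. The members were chosen by these measured values: a mean of at least 50 CPM in the day 14 vehicle macrophage sums, a rise from control of at least 0.5 there, differences from control under 0.5 in either direction in the vehicle tubular sums of days 1, 7, and 14, a macrophage level less than 1 above the tubular level on days 7 and 14 with vehicle, and a cortex-to-medulla difference under 0.5 in either direction in tubules. Of 4401 probes at 50 CPM or more in the day 14 vehicle macrophage sums, 1708 had the rise and 368 met every criterion. The 60 with the largest rise were taken. The most abundant probe of the series, with 3.39% of all counts, was kept out. The 60th member rose by 0.9438 and the first probe left outside by 0.9435, nearly the same value.

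The kidneys came from male C57BL/6 mice whose left renal pedicle was clamped, with the other kidney left in place. Mice received entospletinib, an inhibitor of the kinase SYK, or its vehicle (DMSO) by intraperitoneal injection before IRI, and again during recovery in the groups of days 7 and 14. Injured kidneys were collected on day 1, 7, or 14 from vehicle- or entospletinib-treated mice, and the controls were uninjured kidneys, contralateral ones by the labels and contralateral or healthy ones by the study's methods. Each of the 7 groups had 2 formalin-fixed sections, called section 1 and section 2 here after the prefix of the sample labels, which do not state that a prefix stands for a separate mouse. The p-values therefore measure the spread between these sections, which may be partly technical.

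Macrophages take up debris after tubular injury, and their state changes from inflammatory in the first days toward repair and, in maladaptive repair, fibrosis. IBA1 is a cytoplasmic protein of macrophages, and pan-cytokeratin (PanCK) marks tubular epithelium. SYK carries signals from immunoreceptors and C-type lectin receptors in macrophages and other leukocytes. In the profiled sections, UV light released the probe barcodes from the IBA1-stained or the PanCK-stained area of each region, so that a segment also holds RNA from cells that overlap the stained area. A higher level can reflect more of a cell type in that area or more RNA per cell, and these cannot be told apart. The files identify probes by RTS number and do not pair them with genes, so the labelled cell types could not be checked against marker genes, and the members are described by their levels rather than by their functions.

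The 94 segments comprised 46 of macrophages and 48 of tubules. Macrophage sums per section held 117693 to 2773456 counts, and tubular sums held 9404235 to 25729550. Control section 1 stood apart for these probes: its macrophage sum held 159453 counts, and the median member had 3 counts in it, with a range from 1 to 71. In control section 2, with 298063 counts, the median member had 13 counts, with a range from 7 to 134. In the day 14 vehicle sums the medians were 193.5 and 137.5 counts. The control level, and with it the size of the rise, was thus the least precisely counted quantity of the rule, and intervals given below cover counting error only.

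In macrophages, the members were lowest in the controls and highest on day 14 with vehicle, with the day 1 and day 7 sections between them. The rule took the largest rise from control to day 14 with vehicle, so that the low and high ends of this order restate it. The median member stood at 18.8 and 43.6 CPM in the control sections. It stood at 55.6 and 51.9 CPM on day 1 with vehicle, at 62.2 and 58.7 CPM on day 7, and at 69.8 and 67.9 CPM on day 14. With entospletinib, it stood at 47.4 and 49.4 CPM on day 1, at 48.9 and 59.5 CPM on day 7, and at 53.9 and 56.6 CPM on day 14. Both control medians lay below those of all other sections, but the gap between the control sections was larger than the gap between control section 2 and the lowest injured section. The 3 vehicle groups did not overlap with each other in this median, whereas day 7 with entospletinib overlapped with both other entospletinib groups. The median of all 20175 probes was 21.2 to 30.2 CPM in these 14 sums.

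**Figure D1:**
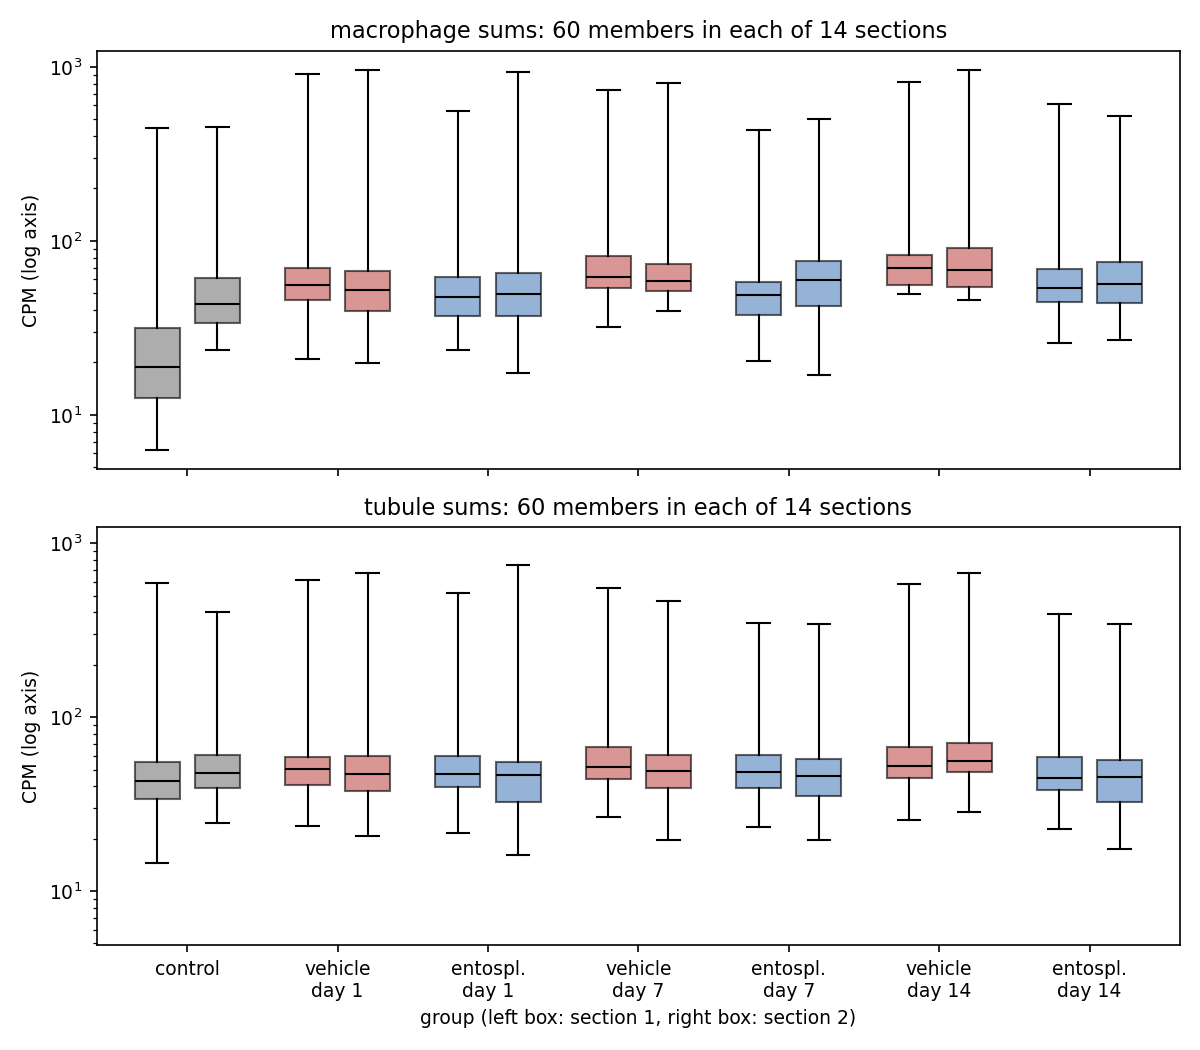
CPM (log axis) of the 60 members in the macrophage sum (top) and the tubular sum (bottom) of each section, by group, in gray for control, red for vehicle, and blue for entospletinib. Boxes span the quartiles with the median as a line, and whiskers reach the lowest and highest member; the macrophage median is 18.8 and 43.6 CPM in the controls and 69.8 and 67.9 CPM on day 14 with vehicle, while the tubular medians stay between 42.9 and 55.7 CPM.

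In tubules, the median member stood between 42.9 and 55.7 CPM in all 14 sections. It was 42.9 and 48.0 CPM in the control sections and 52.7 and 55.7 CPM on day 14 with vehicle, so these groups did not overlap. On day 14 with vehicle, 57 of the 60 members were above the control mean in tubules, by a median of 0.36 on the log2(CPM + 1) scale and at most 0.50, where the rule sets its limit. The median over the 4401 probes at 50 CPM or more was also 0.36. The tubular difference was therefore small by the rule but not absent. The rule limited it for the members and not for the 4401 probes, so the equal medians cannot show whether the members stand apart. On days 1 and 7 the members' median tubular differences from control were 0.10 and 0.15.

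Within the sections, the members were not enriched in macrophages over tubules to the same degree everywhere. In control section 1, only 5 of the 60 members had a higher level in the macrophage sum than in the tubular sum, and the median difference was -0.97. In control section 2, 26 members had the higher level in macrophages, with a median difference of -0.07. On day 14 with vehicle, 52 and 49 members were higher in macrophages, with median differences of 0.31 and 0.29. The rule used the control and day 14 vehicle levels of both compartments, so that the step between these groups is its restatement. From day 14 with entospletinib, the rule used only the cortex-to-medulla difference in tubules. There, 47 and 48 members were higher in macrophages, with median differences of 0.23 and 0.42. Over the 4401 probes at 50 CPM or more, the medians in these sections were 0.17 and 0.27. The day 1 sections ranged from 32 to 42 members above tubules, those of day 7 with vehicle held 47 and 55, and those of day 7 with entospletinib 30 and 44. On day 1 the members' median differences were 0.25 and 0.08 with vehicle and 0.04 and 0.06 with entospletinib. Those of the 4401 probes were 0.19 and 0.08, and 0.07 and 0.07. On day 7 the members had 0.24 and 0.30 with vehicle and -0.02 and 0.35 with entospletinib. The 4401 probes had 0.07 and 0.14, and 0.02 and 0.12.

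The rise in macrophages, m, was 0.94 to 1.79 over the members, with a median of 1.11, against -0.04 over all probes and 0.30 over the 4401 probes at 50 CPM or more. Both day 14 vehicle sums were above both control sums for 55 of the 60 members and for 21.2% of all probes. These values restate the rule and are given as a description. The 4401 probes were also taken by their day 14 vehicle macrophage level, which favors a rise. Measured from control section 1 alone, the median rise was 1.60, with a range from 0.65 to 3.23. Measured from control section 2 alone, it was 0.71, with a range from -0.19 to 1.35, and 56 of the 60 members were above 0 while 41 reached 0.5. Over the 4401 probes, the same medians were 0.36 and 0.25. For the median member, the difference between the control sections was 0.96, with 52 of 60 lower in section 1, whereas the median absolute difference between the 2 sections of any other macrophage group was 0.14 to 0.48.

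The members with the fewest control counts had the largest rise, an order that follows in part from measuring the rise from the control level. In the 35 members with 3 counts or fewer in control section 1, the median rise was 1.23 from both controls and 0.53 from control section 2 alone. In the 20 members with 4 to 9 counts, the medians were 1.02 and 0.96. In the 5 members with 10 counts or more, they were 0.99 and 0.97. How far the low count of control section 1 sets the choice of members was examined by repeating the rule without that section. Of the 60 members, 14 were then among the top 60, and 32 met every criterion.

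**Figure D2:**
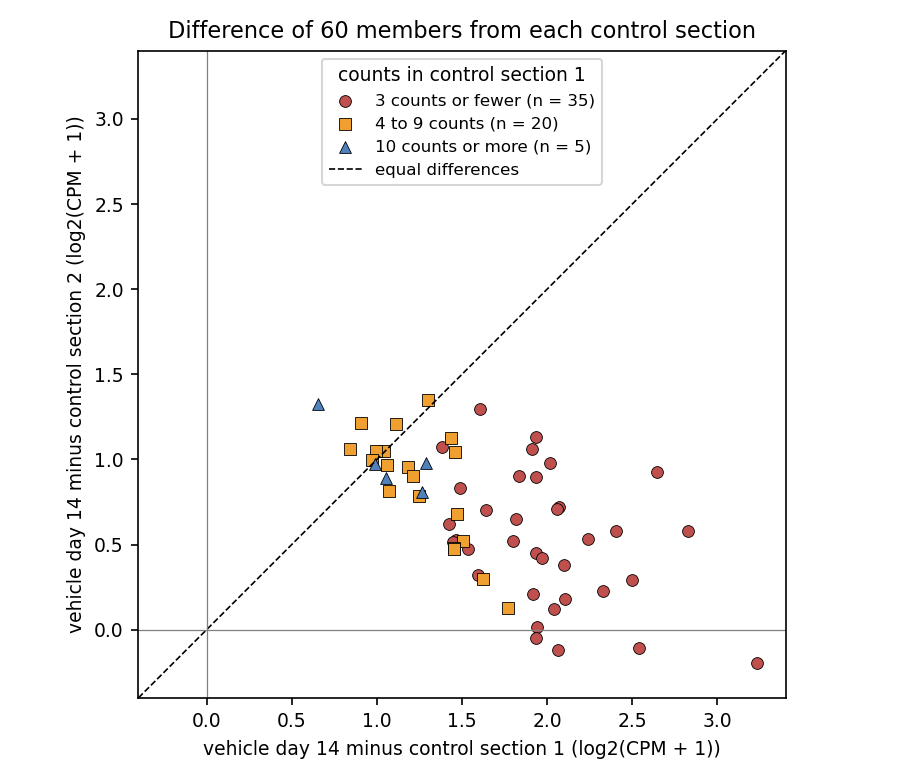
Each point is 1 of the 60 members, placed by its day 14 vehicle macrophage level minus that of control section 1 (x) and of control section 2 (y), on the log2(CPM + 1) scale, with color and shape for its count in control section 1. The 35 members with 3 counts or fewer reach furthest to the right, the 5 with 10 counts or more lie at 0.65 to 1.29 (x) and 0.81 to 1.33 (y), on both sides of the dashed line of equal differences, and the set has no points at the lower left because the rule took the largest mean rise.

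The segments of control section 1 were low for the members one by one. These segments sum to a control level that the rule used, and ranking by the rise favored probes low there. Their values are therefore a description. The 3 macrophage segments of that section had summed member levels of 2320 to 2935 CPM, from 49 to 297 counts. In control section 2, the 3 segments had 3782 to 4248 CPM, from 123 to 621 counts. The 40 macrophage segments of the other groups had 3996 to 7038 CPM. Section 1 did not overlap with section 2, which overlapped at its upper end with the injured sections. The shallowest macrophage sum, that of section 2 on day 7 with entospletinib with 117693 counts, had a median member at 59.5 CPM and was not low. The 4 deepest macrophage sums, with 1222388 to 2773456 counts, were those of days 7 and 14 with vehicle, which also held 4 of the 5 highest medians. The part of depth in the members' levels was not tested.

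The 5 most abundant members, by their mean over all 14 macrophage sums, were at 158 to 686 CPM, and the other 55 were at 37.0 to 126 CPM. The 5 together had 1323 and 1423 CPM in the control sections, from 211 and 424 counts. They had 2555 and 2480 CPM on day 1, 2318 and 2497 CPM on day 7, and 2595 and 2976 CPM on day 14 with vehicle. Their summed control levels were close together, although 1 of the 5 was higher in section 1 and 4 were higher in section 2, and both vehicle sums of day 1 were already within the range of days 7 and 14. With entospletinib, the 5 together had 1738 and 2455 CPM on day 1, 1498 and 1691 CPM on day 7, and 1797 and 1946 CPM on day 14. On days 7 and 14 the entospletinib sections were above both controls and below every vehicle section. Of all probes taken singly, 23.9% on day 7 and 18.5% on day 14 had both entospletinib sums below both vehicle sums of that day. No share was computed for sums of 5 probes or against the vehicle sections of all days. The control and day 14 vehicle levels also chose the members.

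The other 55 members together had 1235 and 2607 CPM in the control sections, from 197 and 777 counts. With vehicle, they had 3176 and 2887 CPM on day 1, 3672 and 3522 CPM on day 7, and 3959 and 3953 CPM on day 14. The control sections lay further apart on a log scale than control section 2 and the day 14 vehicle sections. With entospletinib, they had 2780 and 2786 CPM on day 1, 2662 and 3118 CPM on day 7, and 3085 and 3208 CPM on day 14. The lowest injured section, at 2662 CPM, was near control section 2.

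RTS0075787 had the largest rise, at 1.79. It had 2 and 13 counts in the control macrophage sums, or 12.5 CPM (95% exact Poisson interval 1.52 to 45.3) and 43.6 CPM (23.2 to 74.6). With vehicle it stood at 44.5 and 68.5 CPM on day 1, 61.4 and 57.3 CPM on day 7, and 72.5 and 96.8 CPM on day 14. With entospletinib it stood at 45.4 and 19.8 CPM on day 1, 42.6 and 42.5 CPM on day 7, and 70.6 and 59.2 CPM on day 14. Both day 14 vehicle sections were above every other section, and the control intervals overlapped with those of day 1. In tubules it stood between 25.5 and 49.2 CPM.

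RTS0078584 was next, with a rise of 1.70. It had 1 and 10 counts in the controls, or 6.27 CPM (95% exact Poisson interval 0.159 to 34.9) and 33.6 CPM (16.1 to 61.7). With vehicle it stood at 38.9 and 22.1 CPM on day 1, 54.8 and 43.6 CPM on day 7, and 54.4 and 46.9 CPM on day 14. With entospletinib it stood at 47.4 and 39.6 CPM on day 1, 36.3 and 17.0 CPM on day 7, and 33.5 and 44.0 CPM on day 14. Its day 14 vehicle values lay within the counting interval of control section 2. In tubules it stood between 14.5 and 28.6 CPM, and its tubular level was below its macrophage level in 12 of the 14 sections.

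The comparisons that follow were not used to choose the members. Section sums were compared by the quasi-likelihood test of edgeR after upper-quartile normalization, with p-values adjusted over all probes tested by the Benjamini-Hochberg method. Calls required an adjusted p below 0.05 together with a log2 fold change beyond 1 in either direction. All 60 members passed the filter on low counts in each comparison. The filter was set over all groups for comparisons of groups, and over the sums in the model for comparisons within sections. The day 7 vehicle macrophage sums entered the rule only through an upper limit on their level over tubules. The day 1 and entospletinib macrophage sums did not enter it, and the entospletinib tubular sums entered only through the cortex-to-medulla limit.

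From day 1 to day 7 with vehicle, 1 of the 60 members was called in macrophages, against 1.57% of the 18541 probes tested. The member, RTS0070777, falls outside the naming rule and was chosen after its values were seen. It had 29.2 and 22.1 CPM on day 1 and 124 and 96.5 CPM on day 7. Both day 7 sections were above both day 1 sections, as for 27.7% of all probes. The log2 fold change was 2.00 ± 0.30 (SE, n = 2 sections per group), with an adjusted p of 4.05e-05 by edgeR. It kept the call in each of the 9 alternatives, with log2 fold changes of 1.80 to 2.17. In the controls it stood at 37.6 and 50.3 CPM, above its day 1 values, and on day 14 with vehicle at 112 and 98.3 CPM. In tubules it stood at 61.4 and 51.6 CPM in controls, 44.4 and 36.0 CPM on day 1, 54.1 and 51.2 CPM on day 7, and 72.0 and 64.3 CPM on day 14 with vehicle.

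The other 59 members were not called between days 1 and 7 with vehicle. Over all 60, the median log2 fold change was 0.09, against 0.05 over all probes tested, with 41 members above 0. Both day 7 sums were above both day 1 sums for 23 of the 60 members and for 27.7% of all probes. The step from day 1 to day 7, for which both groups lie outside the control contrast, was thus small for most members.

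With entospletinib, none of the 60 members was called in macrophages between day 1 and day 7 by edgeR, against 0.502% of all probes. By DESeq2 the count was also 0. By edgeR, 10 members had an unadjusted p under 0.05, as did 8.06% of all probes. The median log2 fold change of the members was -0.05, and 28 were above 0. From day 1 to day 14 with entospletinib, 0 members were called by edgeR and by DESeq2, against 0.561% of all probes by edgeR. An unadjusted p under 0.05 by edgeR was found for 10 members and 8.07% of all probes. The median was 0.06, with a range from -0.84 to 1.13 and 33 members above 0. RTS0070777 was the member with the highest log2 fold change, at 1.13 ± 0.33, with an adjusted p of 0.122 by edgeR. It stood at 33.6 and 37.1 CPM on day 1 and at 81.8 and 77.8 CPM on day 14 with entospletinib. In tubules, RTS0070777 stood at 46.8 and 32.8 CPM on day 1 and at 65.8 and 56.3 CPM on day 14 with entospletinib. Its tubular log2 fold change was 0.72 ± 0.18, with an adjusted p of 0.134 by edgeR.

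In tubules with entospletinib, 0 members were called by edgeR and by DESeq2 between day 1 and day 14, against 0.283% of the 20175 probes by edgeR. An unadjusted p under 0.05 by edgeR was found for 8 members and 8.72% of all probes. The median log2 fold change was 0.00, with 30 members above 0 and 30 below. The change from day 1 to day 14 was also compared between the compartments. This interaction, called on the adjusted p alone, included 0 members by edgeR and by DESeq2, against 0.129% of all probes by edgeR. An unadjusted p under 0.05 by edgeR was found for 7 members and 7.29% of all probes. The median interaction over the members was 0.11, on the log2 scale, with 35 above 0. A p that misses the threshold does not show that the compartments changed alike.

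Macrophage and tubular segments were compared across the 6 entospletinib sections, with the section in the model. By edgeR and by DESeq2, 0 members were called, against 1.95% of all probes by edgeR. An unadjusted p under 0.05 by edgeR was found for 12 members and 22.4% of all probes. The members' median log2 difference was 0.07, against -0.09 over all probes, with a range from -0.42 to 0.85 and 36 members above 0. On the adjusted p alone, without the fold threshold, 3 of the 60 members were higher in macrophages and 0 were lower. Of the 20175 probes, 996 were higher and 1103 lower, together 10.4%. RTS0066860, named after its values were seen, was 0.85 ± 0.16 higher, with an adjusted p of 0.00038 by edgeR. RTS0078584 was 0.80 ± 0.17 higher, with an adjusted p of 0.00165, and RTS0075787 was 0.52 ± 0.16 higher, with an adjusted p of 0.0344. The rule's upper limit on the macrophage level over tubules was applied to vehicle sections and not to these.

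Entospletinib was then compared with vehicle on the same day. On day 1, 0 members were called in macrophages by edgeR and by DESeq2, as were 0% of all probes, although 882 probes and 3 members had an unadjusted p under 0.05 by edgeR. The members' median log2 fold change was -0.19, with 37 below 0. On day 7, 0 members were called by edgeR and by DESeq2, against 4.94% of all probes by edgeR. An unadjusted p under 0.05 by edgeR was found for 12 members and 14.5% of all probes. Without section 1 of the entospletinib group, the calls over all probes went from 916 to 58. The members' median was -0.37, against 0.05 over all probes, and 48 of 60 members were below 0, against 46.2% of all probes. Probes of similar abundance were lower as well: on the log2(CPM + 1) scale, the median difference was -0.30 over the 4401 probes at 50 CPM or more, with 70.4% below 0, and -0.47 over the members, with 49 of 60 below 0. The 4401 probes were themselves taken by their level in the day 14 vehicle macrophage sums, so their values may not be free of that choice. Both entospletinib sums were below both vehicle sums for 33 of the 60 members and for 23.9% of all probes. The smallest adjusted p among the members was 0.0824.

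The 5 most abundant members were all below 0 on day 7, by 0.26 to 0.79 on the log2 scale, and none of the 5 passed the test. Their summed levels had not overlapped between these groups. Taken singly, 23.9% of all probes were separated in this direction, and no such share was computed for sums of 5 probes. Section 2 of the entospletinib group had 117693 counts, and the median member had 7 counts in it. The day 7 median was -0.42 without that section and -0.31 without section 1 of the same group.

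The members with the lowest log2 fold changes on day 7 were RTS0075055 and RTS0073970. RTS0075055, which was the last member by its rise, stood at 69.5 and 86.6 CPM with vehicle and at 31.5 and 68.0 CPM with entospletinib. Its log2 fold change was -0.94 ± 0.38, with an adjusted p of 0.200 by edgeR, and it was -0.28 without section 1 and -1.20 without section 2 of the entospletinib group. In the controls it stood at 18.8 and 77.2 CPM, so that control section 2 was within the range of the injured vehicle sections, and on day 1 with vehicle it stood at 79.3 and 30.9 CPM. RTS0073970 stood at 72.8 and 65.1 CPM with vehicle and at 28.4 and 59.5 CPM with entospletinib. Its log2 fold change was -0.91 ± 0.32, with an adjusted p of 0.0921 by edgeR, and it was -0.28 without section 1 and -1.15 without section 2 of that group. For both members the groups did not overlap, as for 23.9% of all probes in this direction, and both were picked for their low fold change here. The higher entospletinib value came from 8 and 7 counts in section 2, with 95% exact Poisson intervals of 29.3 to 134 CPM and 23.9 to 123 CPM that include the vehicle values.

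RTS0073970 differed from most members in its controls, which stood at 31.4 and 30.2 CPM, from 5 and 9 counts. On day 1 it had 69.5 and 55.2 CPM with vehicle and 33.6 and 37.1 CPM with entospletinib, and on day 14 it had 79.7 and 77.6 CPM with vehicle and 55.8 and 44.0 CPM with entospletinib. On day 14 the groups did not overlap, as for 18.5% of all probes in this direction, but the day 14 vehicle sections chose the members. The day 1 log2 fold change was -0.83 ± 0.31, with an adjusted p of 0.974 by edgeR, and 0 of the 18541 probes tested were called on that day. RTS0070777 stood at 45.7 and 119 CPM on day 7 with entospletinib, from 29 and 14 counts, and its log2 fold change against vehicle was -0.74 ± 0.29, with an adjusted p of 0.173 by edgeR. Without section 2 of the entospletinib group its log2 fold change was -1.14, with an adjusted p of 0.0263, and it was then the 1 member called.

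**Figure D3:**
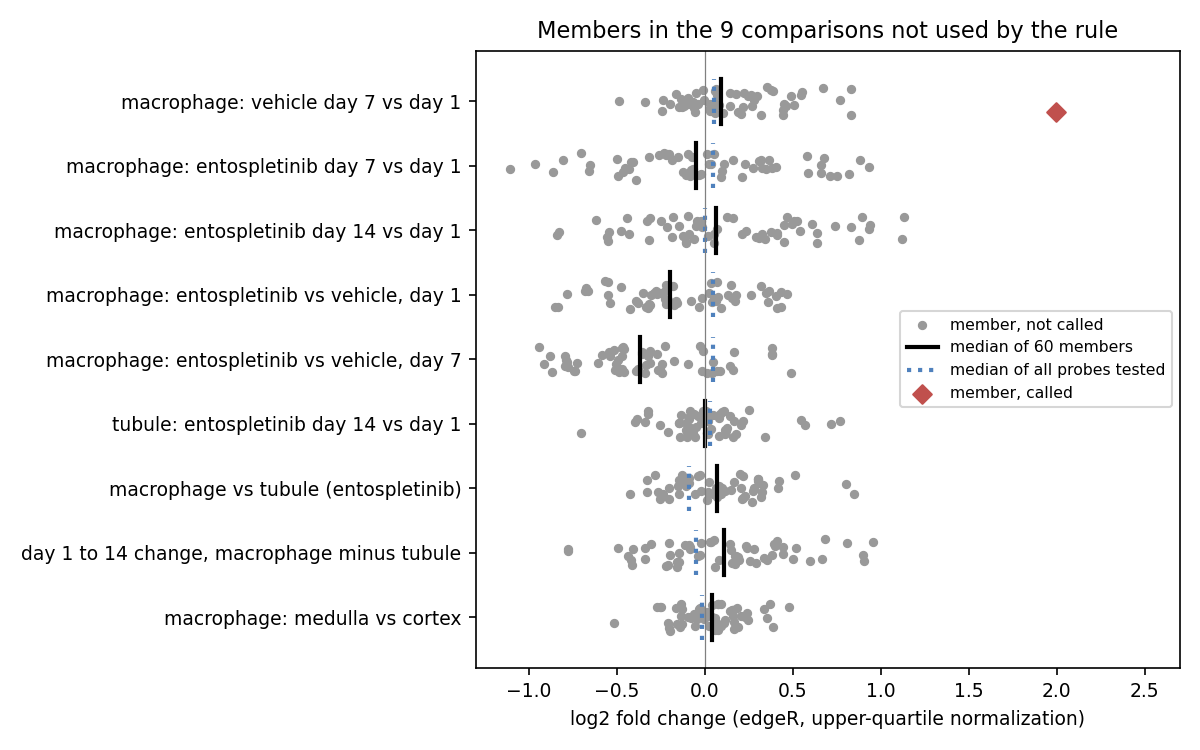
Log2 fold change (x) of the 60 members in each of the 9 comparisons that were not used by the rule, as gray points, with the red diamond for the 1 member called. Black bars mark the members' median and dotted blue bars the median of all probes tested; the members' median lies furthest from 0 for entospletinib against vehicle on day 7, at -0.37.

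On day 14, entospletinib can only be described, because the vehicle sections of that day chose the members. The macrophage level was lower with entospletinib for 56 of the 60 members, by a median of 0.41 on the log2(CPM + 1) scale, and both entospletinib sums were below both vehicle sums for 43 members, against 18.5% of all probes. Of the 4401 probes at 50 CPM or more, 68.7% were lower, by a median of 0.21. These probes were also taken by their level in the day 14 vehicle sections, which favors lower values with entospletinib. From the controls, the members' median difference was 0.79 on day 14 with entospletinib and 1.11 with vehicle, and all 60 were above the control mean in both. These differences share their control sections. From control section 2 alone, the medians were 0.34 and 0.71, with 45 and 56 members above 0.

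Between medulla and cortex, the members differed little within macrophages. They were compared in the 10 sections of days 1 and 7 and of day 14 with entospletinib, with the section in the model. By edgeR and by DESeq2, 0 members were called, against 1.3% of the 13011 probes tested by edgeR. An unadjusted p under 0.05 by edgeR was found for 6 members and 13.3% of all probes. The median log2 difference was 0.04, with a range from -0.52 to 0.48, and 33 members were higher in the medulla. RTS0075787 had the highest value, at 0.48 ± 0.18, with an adjusted p of 0.125 by edgeR. The rule used a small cortex-to-medulla difference in tubules, and this comparison used macrophage segments only.

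**Figure D4:**
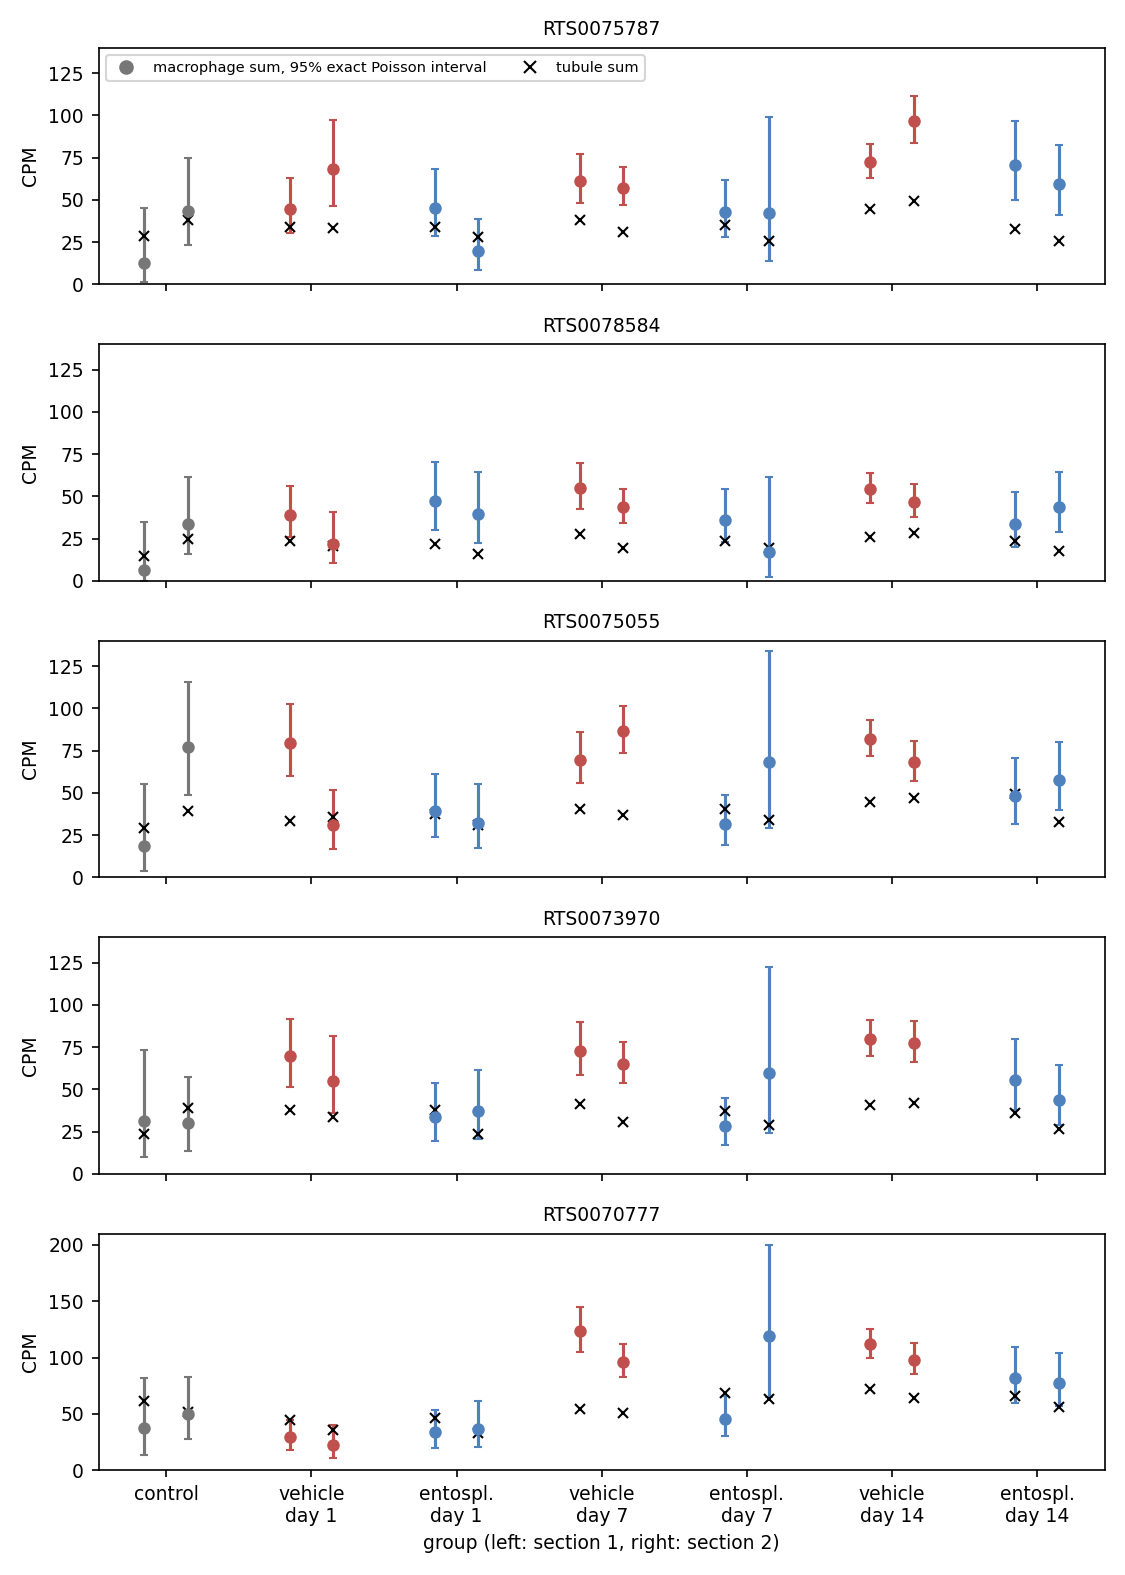
CPM of 5 members named in the text in each section, with circles for the macrophage sum (bars: 95% exact Poisson interval, counting error only) and crosses for the tubular sum; gray is control, red vehicle, and blue entospletinib, and the lowest panel has a wider axis. RTS0070777 rises from 29.2 and 22.1 CPM on day 1 to 124 and 96.5 CPM on day 7 with vehicle, while the controls of RTS0075787 and RTS0078584 rest on 13 counts or fewer per section.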

How the data were processed

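Kidney sections were profiled with the GeoMx Mouse Whole Transcriptome Atlas. The authors deposited, per segment, the whole-number UMI counts of each probe, made by the GeoMx NGS Pipeline (version 3.1.1.5 in the file headers) before filtering or normalization; in 13 files other header fields repeat, and their counts were read the same way. Segments were grouped by their labels. The 2 segments that the study excluded as outliers are not named, so none was left out. Counts were summed per section, stain, and, where compared, region. The members and comparisons were chosen with earlier results of these data known. Sums were tested with edgeR 4.0.16 (robust quasi-likelihood test, upper-quartile normalization, filterByExpr with minimum count 10 and minimum total 15) in R 4.3.3; all 14 sums of a stain shared 1 estimate of the spread, and comparisons within sections had the section in the model. The fit, on counts rather than CPM, was tested on simulated data. Alternatives were TMM, DESeq2 1.42.0, no filter, the label number as a block, leaving out each section, and, for the rule, other scalings, a pseudocount of 5 in place of 1, and thinning. The naming rule took the 2 members with the largest rise and the 2 with the lowest log2 fold change of entospletinib against vehicle on day 7.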

Additional observations from a re-analysis of the deposited data

Results flagged for a closer look

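The summed level of the 60 members was examined in each of the 14 groups of segments for a segment far from the others, a rule that chance meets in about 1 in 20 groups. In 2 groups a segment stood apart. The highest of the 8 macrophage segments of day 14 with entospletinib, from the medulla of section 2, had 5753 CPM, and the others had 4587 to 5053 CPM. The highest of the 7 tubular segments of day 1 with entospletinib, from the medulla of section 2, had 4798 CPM, and the others had 4128 to 4389 CPM.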

How the results depend on the processing

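The choice of members depended on the settings. Of the 60 members, 50 remained in the top 60 with TMM-scaled CPM and 49 with a pseudocount of 5, but 18 remained when log2 CPM was averaged over segments and 13 when the macrophage sums deeper than control section 1 were thinned to its 159453 counts; 14 to 41 remained without 1 control or 1 day 14 vehicle section, the 14 without control section 1. More of the 60 members still met every criterion: 58 with TMM, 60 with the pseudocount of 5, 57 with segment averages, and 46 with thinning. Without 1 control or 1 day 14 vehicle section, 32 to 56 did, the 32 without control section 1. With segment averages 1008 probes met every criterion and with thinning 607, against 368 in the main setting. The median rise was 0.71 to 1.60 with 1 control section left out, lowest without section 1. This setting was chosen after seeing the data. In the 9 comparisons, the count of members called was the same in all alternatives except that 1 in place of 0 was called on day 7 between entospletinib and vehicle without section 2 of the entospletinib group (range 0 to 1), and between macrophages and tubules without section 1 of that group (range 0 to 1). Between entospletinib and vehicle on day 7, the fold changes of the 4 members named by the rule kept their sign but moved in size: RTS0075055 from -1.20 to -0.28, RTS0073970 from -1.15 to -0.28, RTS0078584 from -1.58 to -0.30, and RTS0075787 from -0.55 to -0.34. The labels do not say what sections with the same label number have in common. Their deviations correlated by 0.02 to 0.40, and with the replicate block 1 member was called between days 1 and 7 with vehicle and 0 in the other comparisons of groups. Over all probes, the block moved the calls in tubules from 57 to 105. With 1 section left out, calls over all probes were 58 to 936 on day 7 between entospletinib and vehicle, 105 to 202 between days 1 and 7 with vehicle, 1 to 151 and 11 to 80 from day 1 to days 7 and 14 with entospletinib, 2 to 165 in tubules, and 0 to 86 in the interaction. Without the section in the model, the interaction had 0 calls in place of 26, and DESeq2 gave 10; DESeq2 gave 143 in place of 292 between days 1 and 7 with vehicle and 160 in place of 57 in tubules. Macrophage depth limits what can be seen: 55 of 60 members had under 10 counts in control section 1.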
